A study of Homo sapiens with 9 samples.

Results

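The region described here is the MYC locus on chromosome 8, from position 128000000 to 129500000 of the human build hg19. MYC starts near the middle of this window and reads toward higher coordinates. The members are all peaks of 9 ChIP-nexus peak lists that touch this 1.5 Mb window. There were 171 such peaks among the 354101 peaks of all lists on chromosomes 1 to 22 and X. Merging peaks that overlapped by at least 1 bp gave 53 sites, 19 upstream and 34 downstream of the MYC start. In the RefSeq gene order, the neighbour on the upstream side is the long non-coding RNA gene CASC11, and PVT1, another long non-coding RNA gene, is the next gene downstream.

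ChIP-nexus recovers protein-bound DNA with an antibody and trims it with exonucleases up to the edge of the bound protein. The cells were HEC-1-B, a human uterine adenocarcinoma line, and lines derived from it. Wild-type cells had 1 library each for ZNF143, CTCF and RAD21, and ZNF143KO cells (a ZNF143 knockout) had 1 each for CTCF and RAD21. Cells with the CTCF-AID genotype, in which CTCF carries an auxin-inducible degron and TiR1 is expressed for its degradation, had 1 library each for CTCF and ZNF143 at 0 h and at 24 h of the auxin IAA at 500 μM. The number of clones behind each derived line is not given in the sources used here, and neither loss of ZNF143 nor degradation of CTCF was measured in the files used, so both rest on the labels. With 1 library per group, no difference below has a replicate check and none was tested.

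MYC encodes a transcription factor that drives growth and cell division, and in many tissues it is controlled by enhancers that lie far from the gene on either side. CTCF is a zinc finger protein that binds an asymmetric DNA motif and halts cohesin, the ring complex that extrudes chromatin loops. RAD21 is a subunit of that ring, and ZNF143 is a zinc finger activator found at many promoters and at CTCF sites. A conserved CTCF site just upstream of the MYC promoter has been described in other cells as a docking point for such enhancers.

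Each peak is described by 3 values. The signal is the authors' fold enrichment of the summit over a local background, used only within its own list, and its percentile is the share of that list's peaks with a lower signal. The number of reads at the summit and the local background were solved from the deposited values, and a single whole number of reads fitted each of the 171 peaks. Reads at the summit are not scaled for depth. They also have a ceiling, since the highest count of each list was exactly 2 times its shortest peak length in bp. It was 54 reads in the wild-type ZNF143 and CTCF lists and 42 for RAD21, 50 and 44 in the knockout CTCF and RAD21 lists, 88 and 48 for CTCF at 0 h and 24 h, and 62 and 58 for ZNF143. In the window, 7 knockout RAD21, 6 knockout CTCF, 4 wild-type RAD21 and 1 wild-type CTCF peak lay above 80% of it, and none of the other lists' peaks did. Reads of different lists are therefore set side by side as values, not as a measure of more or less binding. The most frequent background, which stands in for depth, ran from 3.88 reads per kb in the 24 h CTCF list to 26.1 in the knockout RAD21 list. The other CTCF lists had 8.63 (wild type), 18.9 (knockout) and 12.8 (0 h), and the wild-type RAD21 list 7.81. The ZNF143 lists had 5.96 in wild type, 13.5 at 0 h and 12.1 at 24 h. The knockout lists begin at a −log10 q of 5.00, and the 7 other lists at 3.02 or less. Intervals below are exact 95% intervals and cover counting error only.

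The wild-type lists held 26 CTCF, 24 RAD21 and 19 ZNF143 peaks in the window. Each of the knockout lists held 27. The CTCF-AID line had 10 CTCF peaks at 0 h and 2 at 24 h, against 21 and 15 ZNF143 peaks. For comparison, the median stretch of the same length across the genome held 24 wild-type CTCF, 22 RAD21 and 15 ZNF143 peaks, so the wild-type counts here were near the middle of those stretches. In the CTCF-AID lists the median stretch held 13 CTCF peaks at 0 h and 6 at 24 h, more than the 10 and 2 around MYC. It held 13 and 5 ZNF143 peaks, fewer than the 21 and 15 around MYC.

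**Figure D1:**
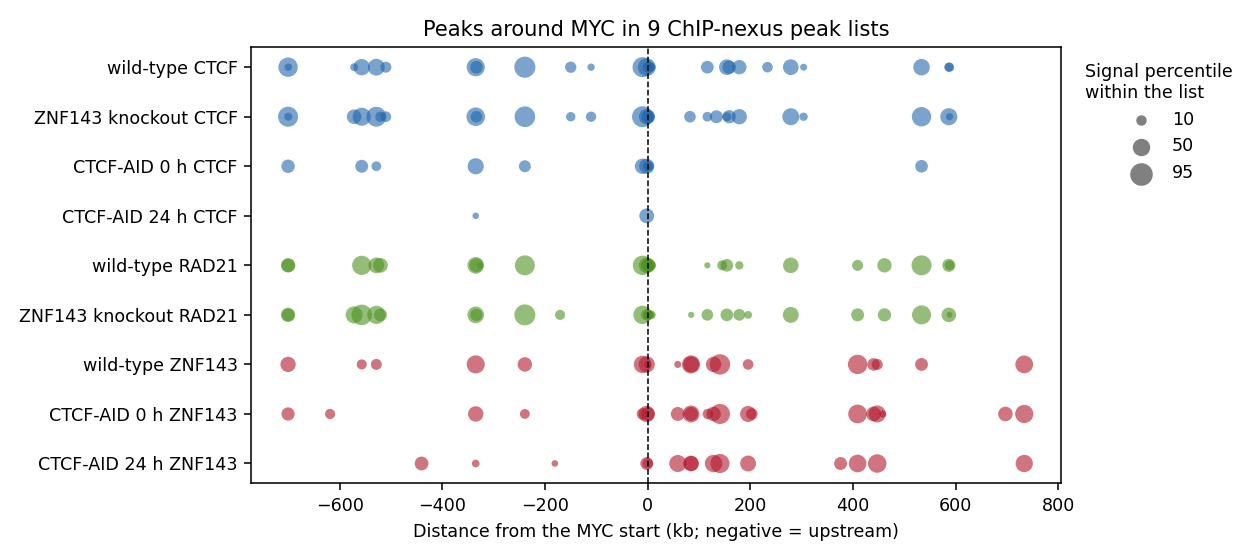
Each point is a peak, placed by the distance of its site from the MYC start in kb (horizontal axis, negative upstream) in 1 of 9 lists (rows), with an area that grows with the percentile of its signal in that list; blue is CTCF, green RAD21 and red ZNF143. CTCF and RAD21 peaks lie on both sides of MYC, the 24 h CTCF list has 2 peaks, and most ZNF143 peaks of the 24 h list lie downstream.

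In wild-type cells, sites with ZNF143, CTCF and RAD21 together numbered 9, of which 7 lay upstream and 2 downstream. ZNF143 without CTCF was found at 10 sites, all downstream, and RAD21 was present at 1 of these. CTCF with RAD21 but no ZNF143 marked 10 sites (2 upstream, 8 downstream), CTCF alone 7 (4 and 3) and RAD21 alone 4 (2 and 2). The other 13 sites had a peak only in lists of the derived lines. Of the 19 wild-type ZNF143 peaks, 9 (47.4%, interval 24.4 to 71.1) overlapped a CTCF peak, against 73.1% of ZNF143 peaks over chromosomes 1 to 22 and X, and 10 (52.6%, 28.9 to 75.6) a RAD21 peak, against 72.9%. The wild-type CTCF peaks overlapped ZNF143 in 9 of 26 cases (34.6%, 17.2 to 55.7), against 50.6%. They overlapped RAD21 in 19 of 26 (73.1%, 52.2 to 88.4), near the 76.4% over the genome.

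There were 4 sites within 2 kb of the MYC start. The one with most lists was 1961 bp upstream, at chr8:128746227-128746498. It had a peak in all 9 lists, as did 1 other of the 53 sites. Its summit held 37 CTCF reads in wild type, 45 in the knockout, 48 at 0 h and 10 at 24 h. RAD21 had 37 reads there in wild type and 44 in the knockout, where 44 is the ceiling, reached by 12.3% of that list's peaks. ZNF143 had 16 reads in wild type, 28 at 0 h and 14 at 24 h. The site was thus listed in every library, with the fewest CTCF reads in the 24 h library, which also had the lowest background.

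A second site lay 205 bp downstream of the start, at chr8:128748431-128748571, with peaks in 7 lists. CTCF had 13 reads in wild type, 32 in the knockout and 24 at 0 h, and no peak at 24 h. RAD21 had 24 reads in wild type and 38 in the knockout. ZNF143 had 8 reads in wild type and 21 at 0 h, and no peak at 24 h. The summits of the 7 peaks lay between 128748515 and 128748521. The summits of all 3 antibodies were therefore within a few bases of each other, just inside the gene. The signals were at percentiles 6.31 to 37.4 of their lists, and the local background was 3.45 to 9.89 times each list's most frequent value. Whether this shared position reflects binding of all 3 proteins was not tested.

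The third, 1763 bp downstream at chr8:128750032-128750184, held CTCF and RAD21 in 5 lists and ZNF143 in none. CTCF had 17 reads in wild type, 33 in the knockout and 28 at 0 h, and RAD21 had 27 in wild type and 42 in the knockout. The last of these sites, at chr8:128748312-128748361, covered the MYC start itself and was listed in the 24 h ZNF143 library only. Its summit of 13 reads lay 20 bp downstream of the start. The site at 205 bp had no ZNF143 peak in the same list. The signal of the peak that covers the start was at percentile 18.8 of the list, and that peak was gone at a −log10 q of at least 10.

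The local background of RAD21 and CTCF was high at these sites. At the 3 RAD21 sites within 2 kb it was 9.71 to 10.4 times the most frequent value in wild type and 6.86 to 7.39 times in the knockout, against medians of 2.32 and 1.68 at the other RAD21 peaks of the window. In the CTCF lists of wild type, knockout and 0 h it was 3.76 to 4.13 times the most frequent value, against medians of 1.40 to 1.66 elsewhere in the window. For ZNF143 it was 2.89 to 3.74 times the most frequent value over the 3 lists, above the medians of 1.59 to 1.74 elsewhere in the window but below the highest values there, 3.90 to 5.67. The signal divides by this background, so the promoter sites ranked lower by signal than by reads. At the 1961 bp site, wild-type RAD21 was at percentile 53.0 by signal and 88.5 by reads, and knockout RAD21 at 24.3 and 87.7. Why the background was higher there was not tested.

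**Figure D2:**
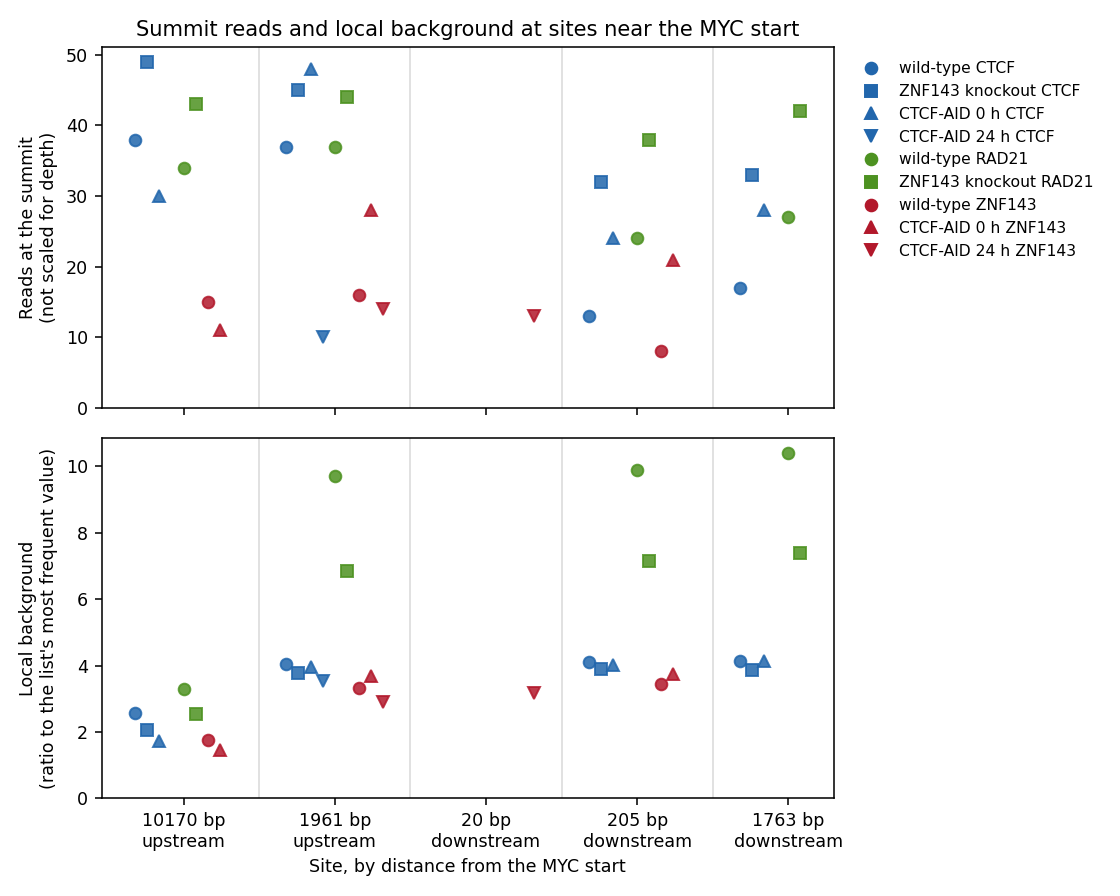
The upper panel gives reads at the summit, not scaled for depth, and the lower panel the local background as a ratio to the list's most frequent value, for the 5 sites named on the horizontal axis by distance from the MYC start; colour is the antibody and marker shape the line or time. Within 2 kb of the start the RAD21 background is 6.86 to 10.4 times the most frequent value, and at the site 10170 bp upstream it is 3.30 in wild type and 2.53 in the knockout.

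Among sites more than 2 kb from the start that were in at least 2 CTCF lists, the nearest lay 10170 bp upstream, at chr8:128738029-128738243, and was among the strongest of the window. A CTCF peak of wild type alone lay nearer, 7109 bp downstream. At the 10170 bp site CTCF had 38 reads in wild type (percentile 88.6 by signal), 49 in the knockout (percentile 98.4) and 30 at 0 h. RAD21 had 34 and 43 reads in wild type and knockout, and ZNF143 15 in wild type and 11 at 0 h. Neither CTCF nor ZNF143 had a peak there at 24 h. The next 2 upstream, at 110398 and 150060 bp, were weak sites of CTCF without RAD21 or ZNF143. They held 7 and 10 CTCF reads in wild type and 13 and 12 in the knockout.

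The strongest CTCF peak of the window was 239469 bp upstream, at chr8:128508762-128508945. Its wild-type signal of 30.5 was at percentile 99.9 of the list, with 48 reads. The knockout had 46 CTCF reads there and CTCF-AID cells at 0 h 17, where the signal was at percentile 27.2. RAD21 had 34 reads in wild type and 42 in the knockout, where its signal reached percentile 98.7. ZNF143 had 11 reads in wild type and 9 at 0 h. Knockout CTCF was at percentile 94.9 of its list by signal and wild-type RAD21 at 88.2.

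The other upstream sites of all 3 proteins lay 335223, 528919, 557389 and 700940 bp from the start. At 335223 bp, the second site with peaks in all 9 lists (chr8:128412991-128413186), CTCF had 34 reads in wild type, 45 in the knockout, 31 at 0 h and 5 at 24 h, and ZNF143 had 16, 14 and 7 in wild type, at 0 h and at 24 h. A partner site of CTCF and RAD21 without ZNF143 lay within 1.5 kb of it, 333975 bp from the start. At 700940 bp CTCF had 32 reads in wild type, 43 in the knockout and 21 at 0 h. The sites at 528919 and 557389 bp held ZNF143 peaks of 8 and 7 reads in wild type and none in CTCF-AID cells.

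Downstream, no wild-type CTCF peak had a signal above percentile 58.2, against 99.9 upstream. In the knockout CTCF list the highest percentiles were closer, 83.2 downstream (at 533597 bp) and 98.4 upstream. The 2 nearest CTCF sites beyond the promoter that were found in more than 1 CTCF list lay 116174 and 154156 bp away, on the side of PVT1, each with CTCF and RAD21 in wild type and knockout. CTCF had 13 reads in both genotypes at the first, and 21 in wild type and 13 in the knockout at the second. At the second the CTCF signal went from percentile 51.5 in wild type to 12.2 in the knockout, while RAD21 stayed near the same rank, at 31.8 and 31.5. The strongest downstream site of CTCF and RAD21 in wild type was 533597 bp away, at chr8:129281825-129282034. RAD21 there had 36 reads in wild type, at percentile 89.1 and the highest RAD21 signal of the window, and 41 in the knockout. CTCF had 22, 39 and 17 reads in wild type, knockout and 0 h, and ZNF143 9 in wild type with no peak in CTCF-AID cells.

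Knockout and wild-type lists were set against each other to see whether CTCF and cohesin sites differ without ZNF143. A knockout peak overlapped 24 of the 26 CTCF peaks of wild type (92.3%, 74.9 to 99.1), against 94.0% over the genome. The 9 that carried ZNF143 in wild type were all among the 24, and with 24 of 26 kept this does not set them apart. The genome share for such peaks was not computed. The 2 missing ones, at 7109 and 233389 bp downstream, had 8 and 10 reads and were at percentiles 9.96 and 19.4 of the wild-type list. Of the 27 knockout CTCF peaks, 3 (11.1%, 2.35 to 29.2) had no wild-type peak, against 21.6% over the genome. This share was 36% (9 of 25) with all lists at a −log10 q of at least 10 and 40% (2 of 5) with the lists at a common size. The 3 peaks lay at 520961 bp upstream and at 82313 and 133885 bp downstream, with 13, 17 and 19 reads. These 5 peaks were at percentile 32.7 or lower of their lists, and the knockout library had 2.19 times the background of wild type. Scaled by that ratio, the 2 missing peaks would have reached 12 reads, the count that marks the lowest 10% of the knockout CTCF list. Why they were not listed there was not tested.

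For RAD21, 21 of 24 wild-type peaks (87.5%, 67.6 to 97.3) overlapped a knockout peak, against 92.3% over the genome. Another, 588195 bp downstream, missed its knockout partner by a few bases and belonged to the same merged site. The RAD21 sites without one were at 326840 bp upstream and 145039 bp downstream, with 4 and 11 reads. In the knockout, 6 of 27 RAD21 peaks (22.2%, 8.62 to 42.3) overlapped no wild-type peak, close to the 20.9% over the genome. The strongest, 572184 bp upstream (chr8:128176058-128176203), held 27 RAD21 reads at percentile 62.3. CTCF at that site had 7 reads in wild type and 22 in the knockout, going from percentile 7.72 to 43.8. A pair of the others, of 12 and 11 reads at 84593 and 195623 bp downstream, lay on ZNF143 sites that had no CTCF peak in any list. The knockout RAD21 library had 3.35 times the wild-type background, and the part that depth played in these added peaks was not tested.

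Among the 24 sites with CTCF in both genotypes, the percentile of the signal was higher in the knockout at 15 and lower at 9, with medians of 33.8 in wild type and 39.6 in the knockout. Of the 22 sites with RAD21 in both, it was higher at 8 and lower at 14, with medians of 40.9 and 33.1. The knockout lists hold no peaks below a −log10 q of 5.00, which moves percentiles within them. The same counts were not computed over the genome, so these shifts cannot be read as particular to the MYC window.

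**Figure D3:**
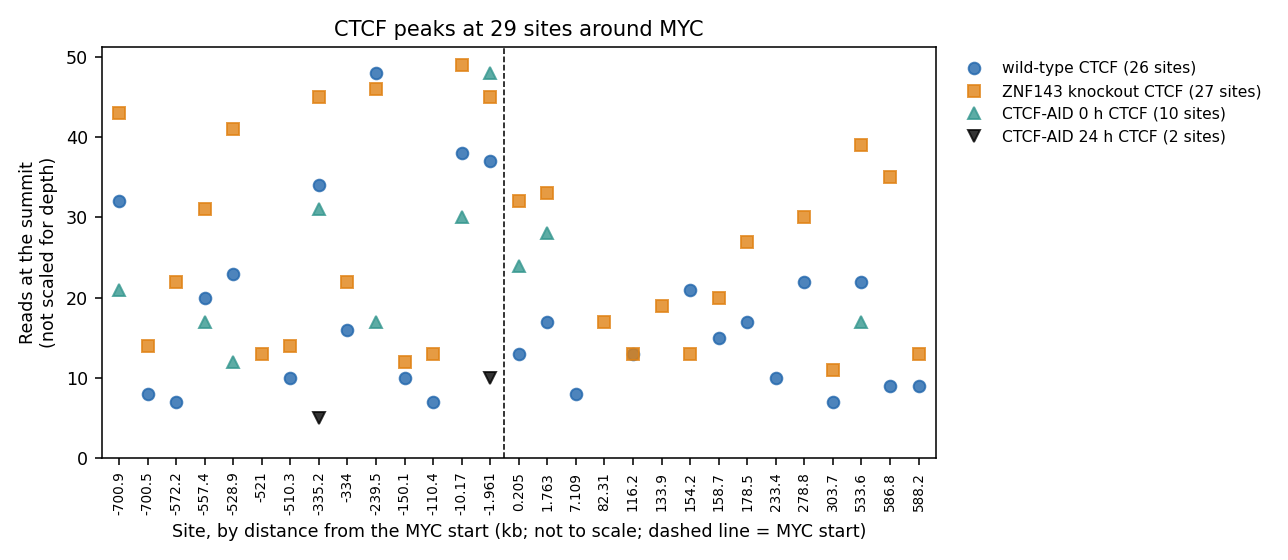
Reads at the summit, not scaled for depth, of CTCF peaks in 4 lists (markers) at 29 sites ordered by distance from the MYC start in kb, with the dashed line at the start. The knockout squares are present at 27 sites and the wild-type circles at 26, the 0 h triangles at 10, and the 24 h list at 2, with 10 and 5 reads.

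The study's title names the geometry of CTCF and cohesin, so the distance between their summits was measured at the 18 CTCF peaks that overlapped peaks in both the CTCF and RAD21 lists of both genotypes. In wild type the median distance was 11.5 bp, with quartiles of 4.25 and 31. The knockout had a median of 12 bp, with quartiles of 6.25 and 22.3. It was shorter in the knockout at 8 sites, longer at 9 and equal at 1. RAD21 lay on the same side of CTCF in both genotypes at 10 sites and on opposite sides at 7. The widest distance in either genotype was at the site 1961 bp upstream of MYC. The RAD21 summit there lay 54 bp toward MYC in wild type and 47 bp toward MYC in the knockout. RAD21 reads at that site were at the ceiling of 44 in the knockout, and 37 against a ceiling of 42 in wild type. Whether the ceiling moves the summit position was not tested. At the 205 bp site the distances were 1 and 6 bp. CTCF summits of the same 18 sites differed by a median of 6 bp between the genotypes' libraries, so shifts of this size also occurred within 1 factor. Only overlapping peaks were measured, which by itself favours short distances in both genotypes. The same distances were not computed over the genome.

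**Figure D4:**
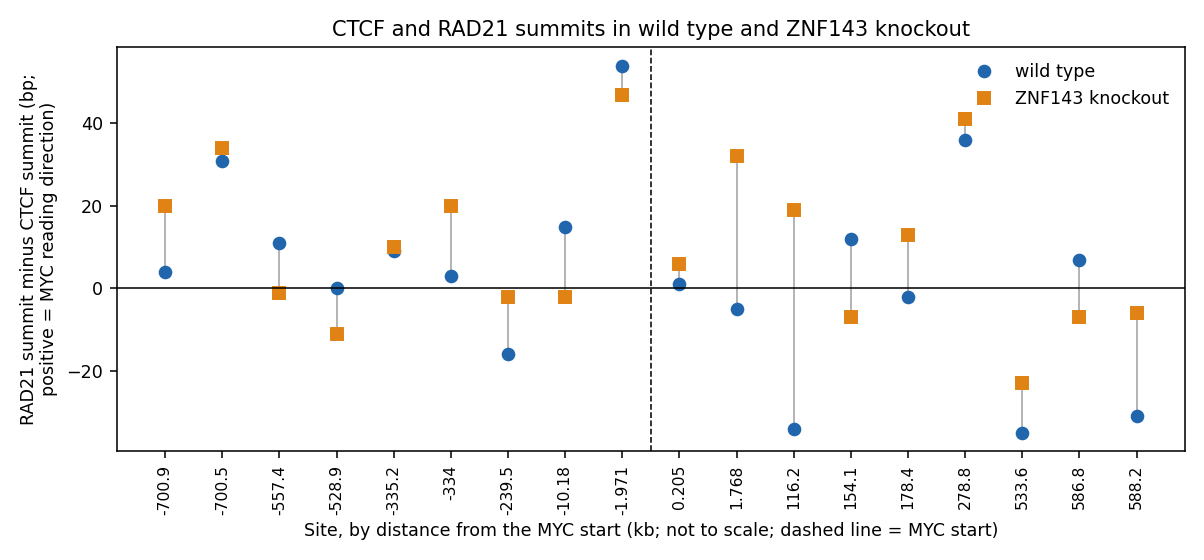
The vertical axis is the RAD21 summit position minus the CTCF summit position in bp, positive in the reading direction of MYC, at 18 sites ordered by distance from the MYC start in kb; circles are wild type and squares the ZNF143 knockout, joined by a line. At the site 1.97 kb upstream (by its wild-type CTCF summit) both genotypes are at or above 47 bp, whereas 7 sites cross the line at 0.

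Wild-type and untreated CTCF-AID cells were compared to show how far lines and libraries differ without the knockout and without auxin. At 0 h, 10 of the 26 CTCF peaks of wild type (38.5%, 20.2 to 59.4) were found again, against 55.1% over the genome. All 9 CTCF peaks with a wild-type ZNF143 peak were found, against 89.5% of such peaks over the genome, and 1 of the 17 without, against 20.0%. The exception was the site 1763 bp downstream of the MYC start. The peaks with ZNF143 had a median percentile of 69.3 (12.8 to 99.9) and those without one of 21.9 (4.43 to 52.1). In the stronger 50% of each list 1 of 3 with ZNF143 and 0 of 7 without were found. The cut removes ZNF143 peaks too, so these 7 include the sites at 239469, 528919, 557389 and 700940 bp upstream and 533597 bp downstream. Each of those had ZNF143 in the full list. At a −log10 q of at least 10, 5 of 5 with and 3 of 11 without were found. Those 3 include the sites at 557389 bp upstream and 533597 bp downstream, again with ZNF143 in the full list. The part of peak strength in this difference was not tested.

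Where both lists had a CTCF peak, the ratio of 0 h to wild-type summit reads was divided by the 1.48-fold ratio of the backgrounds. It was 0.878 (interval 0.560 to 1.39) at the site 1961 bp upstream, 1.25 (0.611 to 2.67) at 205 bp and 1.11 (0.589 to 2.17) at 1763 bp. At the other 7 sites it ran from 0.240 (0.129 to 0.424), 239469 bp upstream, to 0.617. The 3 promoter sites had the highest ratios, and whether they differ from the others was not tested. Divided instead by the ratio of backgrounds per summit, 2.41, which is not divided by the shortest peak length, the 10 ratios ran from 0.147 to 0.767. Of the 16 wild-type CTCF peaks not found at 0 h, 11 would have reached 12 reads there after scaling by 1.48. That count marks the lowest 10% of the 0 h CTCF list. Scaled by 2.41, all 16 would have reached it. Why they were not listed was not tested.

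For ZNF143, 16 of 19 wild-type peaks (84.2%, 60.4 to 96.6) were found at 0 h, against 73.1% over the genome. All 10 ZNF143 peaks without CTCF were found and 6 of the 9 with CTCF, against 83.5% and 69.4% over the genome.

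The auxin lists were used to see which sites remain after CTCF degradation. Of the 10 CTCF peaks at 0 h, 2 (20.0%, 2.52 to 55.6) overlapped a 24 h peak, against 44.4% over the genome. These were the sites 1961 and 335223 bp upstream. Their 24 h summits lay 38 and 54 bp from the 0 h summits. The median shift from wild-type to 0 h CTCF summits in the window was 5.5 bp. The 24 h signals were at percentiles 45.6 and 2.92 of that list. Summit reads were 10 at 24 h against 48 at 0 h, and 5 against 31. The ratios were 0.685 (0.309 to 1.37) and 0.531 (0.161 to 1.38) after division by the background ratio of 0.304. Per summit the background ratio was 0.166 and these values 1.26 and 0.973, so whether CTCF reads at the 2 sites were lower at 24 h depends on this scale. The 8 sites without a 24 h peak included the other 2 promoter sites and the one 10170 bp upstream. Scaled in the same way, their 0 h reads would have given at most 9.12 reads at 24 h, and the lowest count of a 24 h CTCF peak was 4. Only 4 of the 8 would have reached 6 reads, the count that marks the lowest 10% of that list, and 0 of the 8 by the ratio per summit, so depth limits what the absence of a CTCF peak at 24 h can show.

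Of the 21 ZNF143 peaks at 0 h, 11 (52.4%, 29.8 to 74.3) overlapped a 24 h peak, against 43.2% over the genome, and the backgrounds of these libraries were close. With a 0 h CTCF peak, 2 of 6 were kept, at 1961 and 335223 bp upstream, the sites that also kept a CTCF peak. Those not kept lay at 10170, 239469 and 700940 bp upstream and at 205 bp downstream, with 11, 9, 11 and 21 reads at 0 h. Without a 0 h CTCF peak, 9 of 15 were kept. The genome shares were 31.9% and 57.6%. With all lists at a −log10 q of at least 10, 0 of 3 with and 9 of 11 without a CTCF peak were kept. That cut removed the 24 h ZNF143 peaks at 1961 and 335223 bp, whose −log10 q was 8.85 and 4.48. Of the 15 in the full lists, 10 were also in the wild-type list. Among these, 9 of the 10 were kept (90%, 55.5 to 99.7), against 83.6% of such peaks over the genome. The one of the 10 not kept, 440098 bp downstream, had 15 reads at 0 h. Of the 5 not in the wild-type list, 0 were kept (upper limit of the interval 52.2%), against 27.3% over the genome. With all lists at a −log10 q of at least 10 this was 3 of 5, but that cut also removed weaker wild-type peaks. Those 3, at 58510, 195623 and 447217 bp downstream, had a ZNF143 peak in the full wild-type list, so they are other peaks. After scaling by the background ratio, 7 of the 10 ZNF143 peaks not kept would have reached 9 reads at 24 h, the count that marks the lowest 10% of that list.

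The kept ZNF143 sites without CTCF all lay downstream of MYC, as did all 10 wild-type ZNF143 sites without CTCF, so this placement is not particular to the kept sites. The strongest ZNF143 peak of the window in all 3 lists was 140787 bp downstream, at chr8:128889012-128889229. It held 38 reads in wild type, 49 at 0 h and 36 at 24 h, at percentiles 92.3, 88.9 and 80.2, and it had no CTCF or RAD21 peak in any list. At 58510 bp downstream ZNF143 had 6 reads in wild type, 17 at 0 h and 18 at 24 h. A pair of sites near 84 kb, at 84375 and 84593 bp, had 24 and 17 reads at 0 h and 16 and 15 at 24 h. At 447217 bp the reads were 8, 18 and 20 in wild type, at 0 h and at 24 h. The site 409021 bp downstream (20, 25 and 17 ZNF143 reads) also carried RAD21, with 8 reads in wild type and 16 in the knockout.

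Over these 9 sites the ratio of 24 h to 0 h reads, divided by the background ratio of 0.893, had a median of 0.822 and ran from 0.712 to 1.25. At the 2 kept ZNF143 sites with CTCF it was 0.560, with intervals of 0.272 to 1.1 at 1961 bp and 0.191 to 1.48 at 335223 bp. The difference between these sites and the CTCF-free ones was not tested. At 24 h, 4 of the 15 ZNF143 peaks (26.7%, 7.79 to 55.1) had no 0 h peak, against 8.1% over the genome. Besides the one at the MYC start they lay 181057 and 440788 bp upstream and 375772 bp downstream, with 6, 11 and 11 reads. With all lists at a −log10 q of at least 10, 0 of 9 ZNF143 peaks at 24 h had no 0 h peak.

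**Figure D5:**
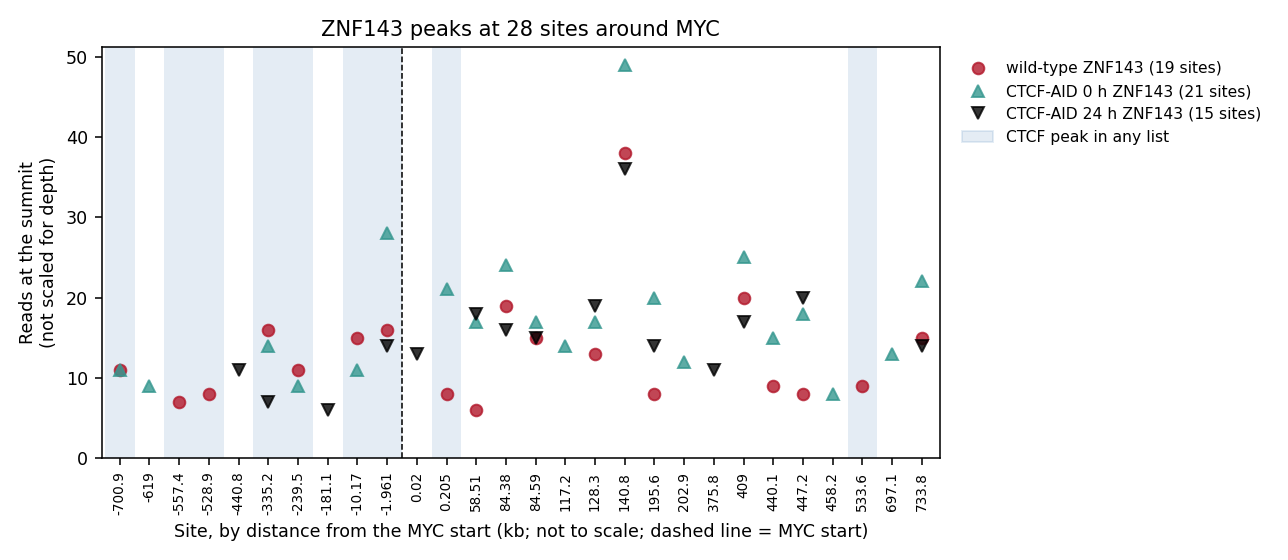
Reads at the summit, not scaled for depth, of ZNF143 peaks in 3 lists (markers) at 28 sites ordered by distance from the MYC start in kb; shading marks the 9 sites with a CTCF peak in any list, and the dashed line is the start. The 24 h list has a peak at 2 of the 9 shaded and 13 of the 19 unshaded sites, and among sites of both other lists at 2 of 6 shaded and 9 of 10 unshaded ones. Sites listed at 24 h alone, all unshaded, are part of the 13 by construction.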

How the data were processed

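Peak lists of 9 libraries were analysed, each in the narrow-peak layout. The submitters' processing notes name cutadapt 2.10, Bowtie2 2.3.5.1, SAMtools 1.12, MACS2 2.2.7.1 and deepTools, and the build hg19, without roles or settings. The authors deposited for each peak a signal value, read as a fold enrichment ratio, a −log10 p, a −log10 q and a score close to 10 times −log10 q. Summit reads and local background were solved from the ratio, with 1 taken to be added to both terms, and a Poisson −log10 p, within 0.002; the form of the ratio is an assumption. On simulated data 1 of 3979 counts was missed, and 0 of 648 overlap calls differed from an all-pairs count. Background per kb is the most frequent background divided by the shortest peak length. Reads are not known to be independent molecules, so intervals (Clopper-Pearson, or exact for ratios of counts) cover counting error only.

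Sites were named by distance: those within 2 kb, the 4 nearest CTCF sites on each side found in at least 2 CTCF lists, the 4 strongest wild-type CTCF sites, the 4 strongest kept, absent and new sites per comparison, and sites in all 9 lists. Others named (333975, 528919 and 58510, 84375 and 588195 bp) were chosen after their values were seen. The window, site rules and comparisons were chosen with earlier results of these data known. RefSeq gene names come from build GRCh38 and served only for gene order, so exons and introns are not given, and promoters of other MYC network genes and a CTCF motif search were not run. Overlaps were computed with pandas 2.3.3 and numpy 2.4.6, intervals with scipy 1.17.1 and plots with matplotlib 3.10.9, under Python 3.11.15.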

Additional observations from a re-analysis of the deposited data

How the results depend on the processing

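No paired analysis was possible because each group had 1 library. The 33 main results had 132 alternative values, of which 85 stayed within 1.5 times the main count, within the interval of the main share or within 1 bp, and 47 moved. Of 193 values of the 80 other results, 141 stayed and 52 moved. Alternatives for shares split by a partner's peak, for the scale of read ratios and for single sites beyond 2 kb were chosen after seeing the data. Intervals of shares are wide here, and most moves come from fewer peaks under a stricter choice.

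Merging across gaps of up to 100 bp, pairing by summits within 50 bp and a 10 kb limit for promoter sites moved 0 main results. At a −log10 q of at least 5, the 24 h CTCF list kept 1 peak. At 10 or more it kept 0, wild-type ZNF143 11, wild-type CTCF 16 and 24 h ZNF143 9, with 4 sites of CTCF alone, 5 of all 3 proteins and 0 of ZNF143 with RAD21 in wild type. The knockout then kept 100% of 16 CTCF and 100% of 17 RAD21 peaks, 36% of 25 knockout CTCF peaks had no wild-type partner, 0% of 0 h CTCF peaks were kept, and the site 20 bp downstream had 0 lists.

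The stronger 50% of each list left 8 wild-type ZNF143, 10 CTCF and 8 RAD21 peaks, 10 knockout CTCF and 8 RAD21 peaks, 7 (0 h) and 8 (24 h) ZNF143 peaks, and 1 (0 h) and 0 (24 h) CTCF peaks. There were 21 sites, of which 2 had CTCF alone in wild type, 5 CTCF with RAD21, 0 RAD21 alone, 5 ZNF143 alone, 3 all 3 proteins and 0 ZNF143 with RAD21. CTCF-AID 0 h then held 10% of wild-type CTCF peaks, and at 24 h 0% of the CTCF and 85.7% of the ZNF143 peaks of 0 h remained. The promoter sites at 1961, 20, 205 and 1763 bp had peaks in 5, 0, 0 and 0 lists.

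With lists of an antibody at a common size, 14.3% of 7 wild-type ZNF143 peaks lay at CTCF, 100% of 3 CTCF peaks at RAD21, the knockout kept 100% of 3 CTCF peaks and 40% of its 5 had no wild-type partner. CTCF-AID 0 h held 0% of 3 CTCF peaks, and at 24 h 100% of 1 CTCF peak and 100% of 7 ZNF143 peaks remained. A reciprocal overlap of 50% put 50% of CTCF peaks at RAD21, kept 0% of 0 h CTCF peaks, and gave median summit distances of 13.5 bp in wild type and 15 bp in the knockout at 8 sites.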
